A study of Mus musculus with 13 samples.

Results

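Cardiac pericytes were taken as the barcodes of mouse heart single-cell libraries that carried transcripts of Rgs5 and of Kcnj8, Higd1b or Abcc9. Upper limits were set on marker transcripts of cardiomyocytes (Tnnt2), endothelium (Pecam1 and Cdh5) and mature smooth muscle (Myh11). A barcode was kept with at least 2000 unique molecular identifiers (UMIs, each counting 1 captured RNA molecule) and 500 genes. It passed the pericyte gate with at least 3 Rgs5 UMIs, at least 2 UMIs of Kcnj8, Higd1b and Abcc9 together, at most 1 UMI of Myh11, at most 1 UMI of Pecam1 and Cdh5 together, and Tnnt2 under 1000 UMIs per 1000000 UMIs of the barcode (CPM). The members were thus selected on the measured levels of 8 genes, and those genes are given as a description with no test. 611 barcodes passed, of 41586 kept heart barcodes and of 76191 kept barcodes in the 10 matrices of the whole series.

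The series followed the developing heart of wild-type C57Bl/6J mice, to study the cardiac conduction system, with droplet-based 3′ RNA sequencing of embryos and hearts. The hearts used here came from 3 embryonic stages (E12.5, E14.5 and E16.5, in days after conception), with 2 libraries each, and from postnatal day 3 (P3). The design text calls the libraries of a stage biological replicates, while the number of animals behind each is not given, so the p-values below measure the spread between libraries. P3 is a single matrix that pools 2 sample records, and its barcodes end in suffix 1 or 2 without a tie to either record, so P3 counts as 1 sample and enters no test between stages.

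Pericytes are mural cells embedded in the basement membrane of capillaries, where they contact endothelial cells through gaps in the matrix. Endothelial PDGF-B signalling through the receptor Pdgfrb recruits them, Notch3 signalling maintains mural cells, and ATP-sensitive potassium channels set their membrane potential and with it capillary tone. In the heart, a large share of them descends from the epicardium, and they lie between the cardiomyocytes and the capillary wall.

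The heart libraries held between 67141166 and 158627277 UMIs in all and between 4318 and 10116 kept barcodes. The members were shallower with age, with a median of 20415 and 19447 UMIs in the E12.5 libraries, 17716 and 16394.5 UMIs at E14.5, 12710 and 9026 UMIs at E16.5 and 8810.5 UMIs at P3. No member barcode was shared by any pair of libraries. Of the E16.5 replicate 2 members, 1 had 61.9% of its UMIs in globin genes, and 2 of the 380 P3 members were above 10%. The summed level of 14 cardiomyocyte genes in the members was 1291 to 6158 CPM in the embryonic libraries and 2467 CPM at P3, beside 969 to 2424 CPM in the fibroblast gate described below. Of 12 endothelial genes Tie1 and Cldn5 were at 0 in 5 and 6 of the 7 libraries. In the P3 members they stood at 2.68 and 4.29 CPM, Kdr at 4.29 CPM, Emcn at 7.51 CPM and Egfl7 at 48.3 CPM. Fabp4 stood at 647 CPM, Esam at 139 CPM and Ramp2 at 102 CPM in the same members.

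The gate caught few barcodes before E16.5 and many after. It held 5 and 5 barcodes in the E12.5 libraries, 15 and 10 barcodes at E14.5, 111 and 85 barcodes at E16.5 and 380 barcodes at P3. As a share of kept barcodes this was 0.0843% at E12.5 (95% exact Clopper-Pearson interval 0.0404 to 0.155), 0.267% at E14.5 (0.173 to 0.394), 1.91% at E16.5 (1.66 to 2.20) and 3.76% at P3 (3.39 to 4.15). The intervals of the 4 stages did not overlap, and within each embryonic stage those of the 2 libraries did. The intervals cover counting error only, and no test between stages was run on 2 libraries each. The suffixes of the P3 barcodes gave 3.60% and 3.95%.

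**Figure D1:**
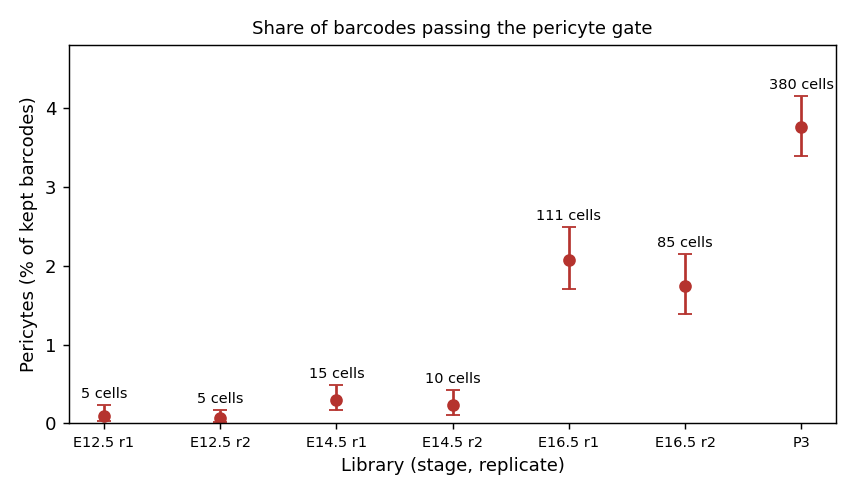
Share of kept barcodes that passed the pericyte gate, by library (r1 and r2 are replicates 1 and 2), in percent. Points are shares, bars are exact 95% intervals for counting error, and the number of member cells stands above each; the E16.5 and P3 points lie above every E12.5 and E14.5 interval.

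The share among barcodes with Tnnt2 under 1000 CPM moved in the same order. It was 0.205% and 0.158% in the E12.5 libraries, 0.936% and 0.693% in those of E14.5, 7.64% and 6.92% in those of E16.5, and 13.1% in P3. Because the gate counts UMIs, depth enters it, so every barcode was also thinned to 2000 UMIs and gated anew. At E12.5 none of 11864 barcodes then passed, which allows a share of up to 0.0311% (exact 95% bound), and the shares of the later stages were 0.0107%, 0.615% and 2.86%. E12.5 and E14.5 could not be ordered at this depth. A gate against mixed cells, with no Pecam1 or Cdh5 UMI, Tnnt2 under 200 CPM and globin under 0.5% of UMIs, gave 0.0590%, 0.224%, 1.28% (1.07 to 1.52) and 1.34% (1.13 to 1.59) in order of stage, and the intervals of E16.5 and P3 then overlapped. With the study's ceiling on mitochondrial UMIs, which left 5646 of 10116 P3 barcodes, the shares were 0.0891%, 0.331%, 2.20% and 6.70%. The share was higher at E16.5 than at E14.5 under each of these settings, by a factor that varied with the setting.

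Barcodes that failed only the threshold on the channel and Higd1b genes differed in number between stages. At E12.5, 118 and 153 barcodes met every other condition but had no UMI of Kcnj8, Higd1b or Abcc9, against the 5 and 5 that passed. At E16.5 the same count was 12 and 6, against 111 and 85 that passed. At P3 it was 131, against 380. On the other edge, 22 P3 members had exactly 1 Myh11 UMI, 22 barcodes with 2 were left out, and 32 with more were left out.

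The levels of the genes the gate reads describe how strongly the members passed it. Rgs5, a GTPase activator that shortens signalling by G-protein-coupled receptors and is typical of mural cells, stood at 801 and 839 CPM at E12.5, 381 and 377 CPM at E14.5, 1138 and 1034 CPM at E16.5 and 3797 CPM at P3. Its level at E14.5 was below that at E12.5, and P3 was the highest. Higd1b, a small mitochondrial membrane protein, was listed at 0 in both E12.5 libraries, at 73.3 and 37.1 CPM at E14.5, 577 and 548 CPM at E16.5 and 1038 CPM at P3. No E12.5 member had a Higd1b UMI, 10 of 15 and 7 of 10 E14.5 members had none, and 13 of 111 and 19 of 85 E16.5 members had none. Members with exactly 3 Rgs5 UMIs, just inside the threshold, numbered 9 and 10 in the E16.5 libraries and 10 in P3, and 9, 9 and 11 further barcodes had 2 and were left out.

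Kcnj8 and Abcc9 encode the pore (Kir6.1) and the regulatory subunit (SUR2) of the vascular ATP-sensitive potassium channel. Kcnj8 stood at 69.2 and 232 CPM at E12.5, 330 and 260 CPM at E14.5, 609 and 554 CPM at E16.5 and 910 CPM at P3. Abcc9 stood at 128 and 33.1, 165 and 138, 264 and 263, and 517 CPM. Both were lowest before E16.5 and highest at P3. Kcnj11 and Abcc8, which encode the pore and regulatory subunit of the pancreatic channel, were at 0 in every embryonic library, and at P3 Kcnj11 was at 0 and Abcc8 at 1.07 CPM. The pore and regulatory genes are neighbours on chromosome 6 of GRCm38.p6, Kcnj8 at chr6:142564837-142571614 and Abcc9 at chr6:142587862-142702766, both on the minus strand, with 16247 bases and 0 RefSeq genes between them.

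The 250 bases before the RefSeq start of the gate's lead gene and of the channel pore are shown because the members were picked by these transcripts. The windows are chr1:169655251-169655500 on the plus strand for Rgs5 and chr6:142571615-142571864 on the minus strand for Kcnj8 (RefSeq, GRCm38.p6), each 5′ to 3′ in the direction of the gene.
Rgs5: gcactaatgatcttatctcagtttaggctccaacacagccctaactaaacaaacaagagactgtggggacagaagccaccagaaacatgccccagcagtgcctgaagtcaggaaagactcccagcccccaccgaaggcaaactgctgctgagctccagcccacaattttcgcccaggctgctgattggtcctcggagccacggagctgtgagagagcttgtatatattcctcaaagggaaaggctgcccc
Kcnj8: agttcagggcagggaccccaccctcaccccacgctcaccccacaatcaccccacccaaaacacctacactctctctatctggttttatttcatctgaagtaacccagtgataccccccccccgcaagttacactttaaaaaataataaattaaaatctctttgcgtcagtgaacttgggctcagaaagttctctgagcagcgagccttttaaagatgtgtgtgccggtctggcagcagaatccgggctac
Higd1b has no entry in the promoter table used here.

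The label of pericyte was checked against genes the gate does not read, of which Notch3, Cspg4 and Ndufa4l2 lay within 2-fold of the smooth muscle gate at P3. Pdgfrb, the PDGF-B receptor, stood at 49.4 and 121 CPM at E12.5, 304 and 387 CPM at E14.5, 364 and 457 CPM at E16.5 and 474 CPM at P3. Notch3 stood at 59.3 and 66.2, 183 and 159, 202 and 234, and 256 CPM. Cspg4, the NG2 proteoglycan of mural cells, stood at 19.8 and 33.1, 36.7 and 58.3, 70.9 and 65.5, and 84.0 CPM. Ndufa4l2, a mitochondrial protein abundant in pericytes, stood at 0 and 11.0, 697 and 562, 1483 and 1425, and 1737 CPM. Vtn, which encodes the matrix protein vitronectin, was at 0 in all 4 libraries of E12.5 and E14.5, at 17.7 and 18.7 CPM at E16.5 and at 157 CPM at P3.

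In the E12.5 barcodes Higd1b, Vtn and Steap4 were at 0 and Ndufa4l2 near 0, while Pdgfrb, Notch3 and Cspg4 were present at lower levels than at E14.5, and they are called here the E12.5 barcodes that passed the gate. Their Ebf1, a transcription factor of mural cells and fibroblasts, was at 49.4 and 11.0 CPM, against 1199 and 620 CPM at E14.5. Eln, elastin of the arterial wall, was at 1245 and 750 CPM in them, and Cxcl12, a chemokine, at 919 and 342, against 44.0 and 21.2 CPM at E14.5. With 10 barcodes in all, E12.5 had too few members per library (under 10) for a test. The E12.5 sums held only 101177 and 90627 UMIs, so a value of 0 there still allows low levels. The E14.5 mean of Steap4, 10.8 CPM, is among the levels so allowed, and Vtn was at 0 at E14.5 as well. The zeros of these 2 genes therefore do not set E12.5 apart. Cspg4 was at 0 in 3 of 5 barcodes of each E12.5 library, so its level rests on few UMIs.

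**Figure D2:**
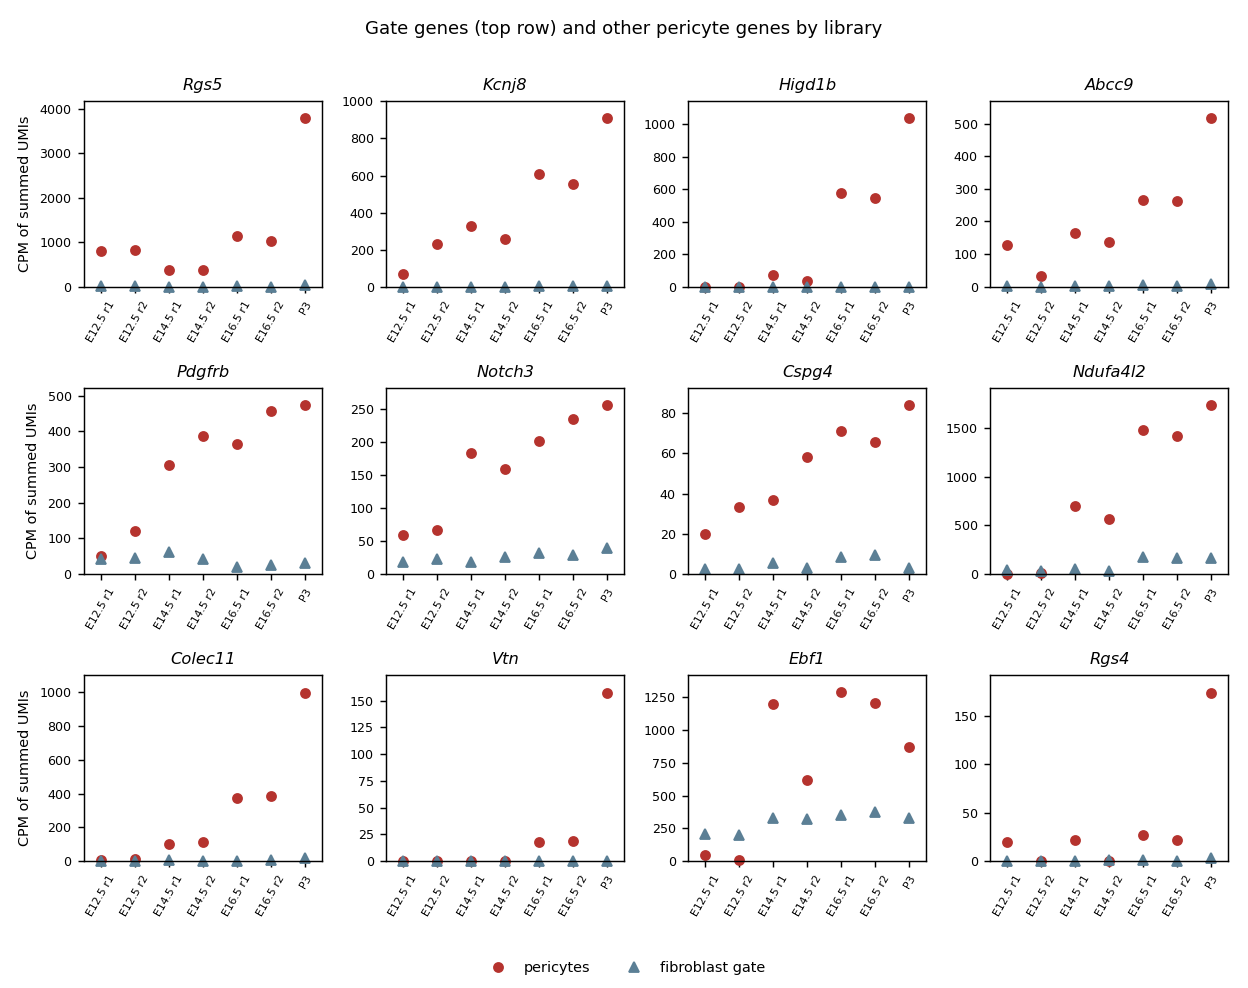
Levels in CPM of summed UMIs, by library, for the 4 genes that define the gate (top row) and 8 pericyte genes it does not read, in pericytes (red circles) and the fibroblast gate (blue triangles). Ndufa4l2 and Colec11 are near 0 and Ebf1 is low in the E12.5 barcodes, each is higher from E14.5 on, and Vtn and Rgs4 are highest at P3.

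Pericytes were compared with cardiac fibroblasts, the other stromal cells of the same suspensions. The fibroblast gate asked for at least 2 Pdgfra and 1 Tcf21 UMIs with at most 1 UMI of Kcnj8, Higd1b and Abcc9 together, and it held 1103 barcodes. UMIs were summed per library and gate, and 5 libraries with at least 10 cells in both gates (E14.5, E16.5 and P3) entered an edgeR quasi-likelihood test with library as a block and Benjamini-Hochberg adjustment. Of 7917 genes tested, 19.4% were called at an adjusted p under 0.05, with 8.85% (701 genes) higher and 832 genes lower in pericytes. Both gates were built on lineage genes in the same barcodes, so a difference in other genes of these lineages goes with how the cells were picked.

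Of 21 tested genes in a list of pericyte genes that no gate reads, 18 were higher in pericytes and 0 lower, with a median log2 difference of 3.04, against -0.02 over all genes tested. Pdgfrb was higher by 3.57 ± 0.21 on the log2 scale (SE derived from the test's F statistic, 5 libraries, edgeR adjusted p = 1.38e-08). It stood at 304 to 474 CPM in pericytes and 20.6 to 62.3 CPM in fibroblasts. Colec11, a secreted lectin, was higher by 5.93 ± 0.23 (edgeR adjusted p = 1.92e-10). Steap4, a metalloreductase, was at 10.6 to 160 CPM in pericytes and at 0 in 4 of 5 fibroblast sums (edgeR adjusted p = 4.21e-10). Cox4i2, an isoform of a respiratory chain subunit, was at 554 to 936 CPM in pericytes and 42.6 to 68.2 in fibroblasts, and was higher by 3.65 ± 0.12 (edgeR adjusted p = 1.45e-11). For these 4 genes no pericyte library overlapped a fibroblast library. They were picked among called genes, and the share of all genes without overlap was not counted, so this adds little to the test. Tbx18, a transcription factor of the epicardium and mural cells, differed by 0.11 ± 0.15 (edgeR adjusted p = 0.694; 95% interval of the difference -0.18 to 0.40).

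By size of change among genes of at least 50 CPM, the 8 highest in pericytes were Gm13889, Fabp7, Colec11, Nrarp, Esam, Serpini1, Art3 and Apold1. In the P3 smooth muscle gate, described below, Gm13889, Fabp7, Nrarp and Esam stood at 579, 193, 254 and 206 CPM. In P3 pericytes they stood at 396, 164, 109 and 139 CPM, so they were not particular to pericytes. Colec11, Serpini1, Art3 and Apold1 were lower in that gate than in P3 pericytes. Gm13889 stood at 836 and 498 CPM at E14.5, 1119 and 1114 CPM at E16.5 and 396 CPM at P3, against at most 13.7 CPM in the fibroblasts of these libraries. Fabp7, a fatty acid binding protein best known from glia, stood at 367 and 191, 446 and 275, and 164 CPM, against at most 9.65 in these libraries. It and S100b, at 0 to 22.0 CPM, were both tested genes of a neural crest and glia list, and both were higher in pericytes. Sox10 and Foxd3, transcription factors of the neural crest, were at 0 in every pericyte library. The 8 lowest were Slc38a5, Wfdc18, Mfap5, Clmp, Capn6, Dpep1, Smoc2 and Gxylt2. Slc38a5, an amino acid transporter, had 0 UMIs in all 4 embryonic pericyte sums of E14.5 and E16.5, with 102 to 127 CPM in the matching fibroblast sums.

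Genes of the interstitial matrix were lower in pericytes. Of 26 tested, 18 were lower and 1, fibronectin Fn1, higher, with a median log2 difference of -1.52. The Fn1 call was lost without E14.5 replicate 1 or either E16.5 library. Col1a1 of type I collagen stood at 378 and 207 CPM at E14.5, 227 and 290 CPM at E16.5 and 493 CPM at P3 in pericytes, and at 1060 and 887, 2062 and 2398, and 3049 CPM in fibroblasts. Its difference was -2.58 ± 0.20 on the log2 scale (edgeR adjusted p = 2.29e-07). Dcn, the proteoglycan decorin, differed by -3.40 ± 0.19 (edgeR adjusted p = 5.56e-09). Postn, periostin, was lower by less, -0.73 ± 0.16 (edgeR adjusted p = 0.00347), at 477 and 392, 557 and 658, and 1207 CPM in pericytes.

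Pericytes share the basement membrane with endothelium. Of 17 tested genes of it, 6 were higher in pericytes and 7 lower, and DESeq2 called 9. The calls of Col18a1, Lamb1 and Lamb2 were lost by DESeq2 and without either E16.5 library, that of Lama2 by DESeq2 and that of Lamc1 without E16.5 replicate 1. Col4a1 and Col4a2, the chains of type IV collagen, were higher by 1.68 ± 0.13 and 1.53 ± 0.13 (edgeR adjusted p = 1.71e-07 and 5.42e-07). Col4a1 stood at 543 and 552 CPM at E14.5, 878 and 1013 CPM at E16.5 and 1969 CPM at P3. The integrin subunits Itga7 and Itga1 were higher by 4.41 ± 0.33 and 2.58 ± 0.16 (edgeR adjusted p = 1.46e-07 and 1.87e-08). At P3 Itga7 stood at 161 CPM in the smooth muscle gate and 61.4 in pericytes, while Col4a1, Col4a2 and Itga1 were lower in that gate. Lama2, a laminin chain, and Hspg2, perlecan, were both lower, by -1.29 ± 0.22 and -1.29 ± 0.18 (edgeR adjusted p = 0.0005 and 7.1e-05).

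Notch signalling passes from a ligand on a neighbouring cell to a receptor whose cleaved domain joins Rbpj on DNA and switches on Hes, Hey and Nrarp genes. Of 10 tested genes of this pathway, 6 were higher in pericytes and 1, Rbpj, lower, a call that was lost without E16.5 replicate 1 or P3. The receptors Notch3 and Notch1 were higher by 2.78 ± 0.13 and 2.12 ± 0.20 on the log2 scale (edgeR adjusted p = 1.23e-09 and 1.71e-06). The target Nrarp, a feedback inhibitor, stood at 220 and 127 CPM at E14.5, 134 and 164 CPM at E16.5 and 109 CPM at P3, against at most 4.27 CPM in fibroblasts, and was higher by 5.62 ± 0.29 (edgeR adjusted p = 2.81e-09). The targets Hey2 and Heyl were higher by 2.44 ± 0.23 and 2.41 ± 0.22 (edgeR adjusted p = 1.63e-06 and 1.25e-06). The target Hes1 differed by 0.08 ± 0.15 (edgeR adjusted p = 0.799). Dll4, an endothelial ligand, was at most 6.13 CPM in pericytes and 31.6 to 44.6 in the endothelial gate (Pecam1 and Cdh5 at 5 or more UMIs).

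The bases before the starts of Hey2 and Nrarp are shown because these targets set pericytes apart from fibroblasts. They were searched on both strands for TGGGAA, the core letters of the Rbpj motif, whose reverse complement is TTCCCA. The windows are chr10:30842784-30843033 on the minus strand for Hey2 and chr2:25180508-25180757 on the plus strand for Nrarp (RefSeq, GRCm38.p6), and capitals mark a match.
Hey2: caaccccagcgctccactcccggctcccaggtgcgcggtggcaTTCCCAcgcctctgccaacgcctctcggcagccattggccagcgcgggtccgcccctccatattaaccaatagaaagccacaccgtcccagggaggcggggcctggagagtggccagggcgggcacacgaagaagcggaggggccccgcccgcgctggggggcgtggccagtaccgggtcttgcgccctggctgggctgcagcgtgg
Nrarp: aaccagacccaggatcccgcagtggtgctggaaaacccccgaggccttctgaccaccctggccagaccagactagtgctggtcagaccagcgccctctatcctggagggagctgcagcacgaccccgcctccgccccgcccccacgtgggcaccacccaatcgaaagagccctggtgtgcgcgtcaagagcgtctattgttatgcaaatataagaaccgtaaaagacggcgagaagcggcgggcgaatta
Hey2 held 1 match, 207 bases before the start, and Nrarp and Notch3 held 0. Of all 32851 RefSeq windows of 250 bases, 21.6% held the letters, so a match is common. Heyl has no entry in the table.

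Of 14 tested genes of cGMP and G-protein-coupled signalling, which set vascular tone, 8 were higher and 5 lower. The call of Pde5a was lost in 5 of 13 alternatives, those of Gnai1 and S1pr2 without P3, that of Calcrl without E16.5 replicate 2 and that of Ramp1 with the gate against mixed cells. Ednra, the endothelin receptor, was higher by 4.12 ± 0.28 on the log2 scale (edgeR adjusted p = 4.62e-08), and S1pr3, a sphingosine phosphate receptor, by 1.99 ± 0.15 (edgeR adjusted p = 1.36e-07). Gucy1a3 and Gucy1b3, the subunits of the nitric oxide receptor, were higher by 1.37 ± 0.23 and 1.40 ± 0.19 (edgeR adjusted p = 0.000522 and 6.72e-05). In the P3 smooth muscle gate Ednra, Gucy1a3 and Gucy1b3 stood at 100, 695 and 282 CPM, against 76.2, 512 and 263 in P3 pericytes. S1pr3 stood at 59.0 CPM in that gate, against 120 in P3 pericytes. Ramp1 and Ramp2, partners of the calcitonin-like receptor, were lower by -1.32 ± 0.31 and -1.31 ± 0.14 (edgeR adjusted p = 0.00592 and 6.08e-06). Of 3 tested PDGF genes, Pdgfrb and Pdgfa were higher and Pdgfrl lower, and Pdgfb, the endothelial ligand, was at most 6.13 CPM in the members.

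Of 19 tested TGF-beta and BMP genes, 2 were higher and 10 lower, beside 8.85% of all genes higher and 832 of 7917 lower. The call of Tgfb2 was lost by DESeq2 and without either E16.5 library, and that of Serpine2 without either E16.5 library. Id2, a BMP target, stood at 26.5 to 119 CPM in pericytes and 295 to 431 in fibroblasts, a difference of -2.74 ± 0.20 (edgeR adjusted p = 8.52e-08). Of 25 transcription factors, 10 were higher and 9 lower, beside the same background. Tbx2, Nr2f2 and Mef2c were higher by 2.90 ± 0.19, 2.63 ± 0.14 and 2.56 ± 0.13 (edgeR adjusted p = 4.05e-08, 3.95e-09 and 2.61e-09), and the cardiac factors Hand2 and Gata4 were lower by -0.87 ± 0.16 and -0.55 ± 0.13 (edgeR adjusted p = 0.000991 and 0.00595). Epas1, the hypoxia-inducible factor of vascular cells, was higher by 3.57 ± 0.27 (edgeR adjusted p = 1.71e-07). In the P3 smooth muscle gate Tbx2, Nr2f2, Mef2c and Epas1 stood at 117, 224, 1134 and 142 CPM. In P3 pericytes they stood at 41.0, 220, 389 and 124 CPM.

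Marker lists of other cells were followed in the same tests, where 8.85% of all genes were higher and 832 of 7917 lower. Of 9 fibroblast genes, 9 were lower in pericytes, and their summed level was 742 to 2846 CPM at E14.5 to P3 against 1987 to 13840 CPM in the fibroblast gate. Of 3 epicardial genes 2 were lower, Wt1 and Aldh1a2. Of 12 cardiomyocyte genes 1 was higher, Actc1, which is near the share of all genes. Of 6 endothelial genes 3 were higher (Esam, Fabp4 and Egfl7, with Fabp4 lost by DESeq2) and 2 lower, while the summed level of 12 such genes was 110 to 1090 CPM in the members and 3470 to 16390 CPM in the endothelial gate. Of 4 globin genes edgeR called 0 and DESeq2 0. By edgeR 1 of the 4 had an unadjusted p under 0.05, beside 2364 of all 7917 genes. No macrophage gene was abundant enough to be tested. Of 17 genes of angiogenic signalling 2 were higher, Epas1 and Nrp1, and 8 lower, and of 7 ion channel and pump genes outside the gate 2 were higher (Atp1b2 and Kcne4) and 1 lower.

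Pericytes of E16.5 were then compared with those of E14.5, the only pair of stages with 2 libraries of at least 10 members each. The same test over 4 sums called 2.16% of 5334 genes, 1.42% higher and 0.731% lower at E16.5. The E14.5 sums hold 15 and 10 cells, and 8.85% of genes of at least 50 CPM lay 2-fold or more apart between them, against 0.527% between the E16.5 sums. Sums this small can be set by 1 cell, so the UMIs from the highest member are given for some of the genes below.

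In the pericyte list, 4 of 21 tested genes were higher at E16.5 and 0 lower, with a median log2 difference of 0.60, against 0.00 over all genes. Colec11 stood at 99.0 and 111 CPM at E14.5 and at 374 and 385 CPM at E16.5, higher by 1.87 ± 0.22 (edgeR adjusted p = 0.000204). Ndufa4l2 was higher by 1.21 ± 0.19 (edgeR adjusted p = 0.00172), and S1pr3 and the adhesion molecule Esam were higher by 1.45 ± 0.34 and 1.88 ± 0.39 (edgeR adjusted p = 0.0306 and 0.0128), of which S1pr3 was lost without E14.5 replicate 1 or E16.5 replicate 2. DESeq2 called 2 of the list, without S1pr3 and Esam. Of 6 tested endothelial genes 2 were higher (Fabp4 and Esam, the latter in both lists) and 1 lower (Flt1, a call lost by DESeq2 and without any 1 library), and their part in this was not tested. For the 4 called genes of the pericyte list the E16.5 and E14.5 libraries did not overlap, which with 2 libraries a stage adds little to the test. Pdgfrb, Notch3 and Cspg4 differed by 0.26 ± 0.21, 0.34 ± 0.20 and 0.60 ± 0.34 (edgeR adjusted p = 0.633, 0.46 and 0.432), and did not pass the test.

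The 8 genes of at least 50 CPM with the largest rise were Dpt, Aoc3, Hspa1a, Nostrin, G0s2, Fabp4, Mgst3 and Ckm, of which DESeq2 did not call Dpt, Aoc3 and Ckm, and Ckm was also lost without E16.5 replicate 1. Aoc3, a vascular amine oxidase of mural cells, stood at 3.67 and 0 CPM at E14.5 and at 63.4 and 56.1 CPM at E16.5, higher by 4.71 ± 0.75 (edgeR adjusted p = 0.00172). Nostrin, which binds endothelial nitric oxide synthase, stood at 7.33 and 0 CPM and then at 96.1 and 74.8, higher by 4.29 ± 0.63 (edgeR adjusted p = 0.000913). Fabp4, a fatty acid carrier of capillary endothelium, stood at 18.3 and 10.6 CPM and then at 100 and 102, higher by 2.74 ± 0.40 (edgeR adjusted p = 0.000983). Dpt, a matrix protein of fibroblasts, stood at 3.67 and 0 CPM and then at 68.8 and 65.5, higher by 4.87 ± 0.72 (edgeR adjusted p = 0.00102), while fibroblasts held 41.2 and 42.6 and then 448 and 392 CPM. The log2 values against a sum with 0 UMIs depend on the prior count of the fit.

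Immediate early and heat shock genes are switched on within minutes of stimulation or handling of cells. Of 15 tested, 6 were higher at E16.5 (Hspa1a, Fosb, Fos, Junb, Dusp1 and Jun), 0 lower and 9 not called, with a median log2 difference of 1.13. DESeq2 called 4, without Fosb and Dusp1, and the call of Dusp1 was also lost without replicate 1 of either stage. Fos stood at 396 and 260 CPM at E14.5 and at 1082 and 1263 CPM at E16.5, higher by 1.83 ± 0.22 (edgeR adjusted p = 0.000204). In fibroblasts of the same libraries Fos stood at 439 and 488 CPM and then at 1181 and 1153. At P3 Fos reached 1541 CPM in pericytes and 1691 in fibroblasts.

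The 8 with the largest fall were Fbln2, RP23-455C13.7, Ccl2, Hmga2, Eln, Slit2, Mdm2 and Rhou, of which Fbln2, RP23-455C13.7, Hmga2, Mdm2 and Rhou were each lost without at least 1 of the E14.5 libraries. Ccl2, a chemokine, stood at 143 and 239 CPM at E14.5 and at 25.9 and 32.7 CPM at E16.5, lower by -2.67 ± 0.30 (edgeR adjusted p = 0.000159). Slit2, a guidance ligand, stood at 95.4 and 74.2 CPM and then at 19.1 and 18.7, lower by -2.16 ± 0.35 (edgeR adjusted p = 0.00192), with UMIs in 12 of 15 and 7 of 10 E14.5 members. Cdkn1c, an imprinted inhibitor of the cell cycle, stood at 1804 and 1867 CPM and then at 805 and 645, lower by -1.33 ± 0.19 (edgeR adjusted p = 0.000913). It was the only one of 30 tested cell cycle genes called by edgeR. Col18a1, a basement membrane collagen, was lower by -2.59 ± 0.54 (edgeR adjusted p = 0.0146), a call lost without E14.5 replicate 1 or either E16.5 library.

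The fall of Eln rested on single members. It stood at 128 and 212 CPM at E14.5 and at 27.3 and 35.1 CPM at E16.5, lower by -2.42 ± 0.31 (edgeR adjusted p = 0.00032). In E14.5 replicate 1, 1 member held 30 of the 35 Eln UMIs, and in replicate 2, 1 member held all 40. Without these the sums were at 19.5 and 0 CPM, below both E16.5 sums, so the direction did not remain. The replicate 1 member also held 37 of 37 UMIs of Sfrp2 and 13 of 13 of Mfap5. It held 21 of 24 Fbln2 UMIs, and 1 member of replicate 2 held 3 of 5. Without these Fbln2 was at 11.7 and 11.6 CPM, against 7.49 and 7.02 CPM at E16.5, so its direction remained at a smaller size. In replicate 1, 14 of 24 Mdm2 UMIs came from 1 member, and RP23-455C13.7 had 19 of 23 UMIs in 1 member of replicate 2.

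Of 10 tested genes of Notch signalling edgeR called 0, with 1 at an unadjusted p under 0.05, and DESeq2 called 0. Over all 5334 genes edgeR called 2.16%, and 829 had an unadjusted p under 0.05, so the Notch counts lie near the background. In TGF-beta and BMP signalling edgeR called 0 of 14, with 4 at an unadjusted p under 0.05, and DESeq2 called 0. Of 23 transcription factors 1 was higher, Klf4, by 3.26 ± 0.72 (edgeR adjusted p = 0.0194), a call that was lost by DESeq2 and without either E16.5 library. In the basement membrane list, Col4a1 was higher by 0.80 ± 0.20 (edgeR adjusted p = 0.0428), which was lost without E14.5 replicate 1 or either E16.5 library.

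Whether a stage change differed between pericytes and fibroblasts was tested as the change from E14.5 to E16.5 in pericytes minus that in the fibroblast gate. Other cell types were not part of this test. The edgeR quasi-likelihood test of this difference called 0.654% of 8415 genes, 0.238% with a higher and 0.416% with a lower change in pericytes. Dlk1, an imprinted Notch-related membrane protein, stood at 1317 and 583 CPM at E14.5 and at 987 and 1188 CPM at E16.5 in pericytes. In fibroblasts it stood at 80.7 and 39.7 CPM and then at 801 and 1040, so only the fibroblast groups stood apart, and the changes differed by -3.82 ± 0.34 on the log2 scale (edgeR adjusted p = 1.7e-08). Mest, another imprinted gene, stood at 1133 and 1342 and then 627 and 740 CPM in pericytes, and at 135 and 152 and then 449 and 522 in fibroblasts, a difference of -2.69 ± 0.22 (edgeR adjusted p = 3.44e-09). Cdkn1c stood at 345 and 312 and then 546 and 582 CPM in fibroblasts, and its changes differed by -2.19 ± 0.21 (edgeR adjusted p = 4.02e-08).

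All 3 genes were higher in pericytes than in fibroblasts in both E14.5 libraries. At E16.5 Dlk1 overlapped between the cell types, and Mest and Cdkn1c did not. Dlk1 was seen in 15 of 15 and 9 of 10 members at E14.5, and Cdkn1c in 15 of 15 and 10 of 10. In replicate 2, 1 member held 50 of 110 Dlk1 and 135 of 352 Cdkn1c UMIs, and without it the levels were 376 and 1359 CPM. The highest member of replicate 1 held 69 of 359 Dlk1 UMIs, and another 81 of 492 of Cdkn1c. Igf2, an imprinted growth factor, differed in the same direction by -1.10 ± 0.23 (edgeR adjusted p = 0.012), which was lost without E14.5 replicate 2 or E16.5 replicate 1.

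Of 26 tested genes of the interstitial matrix, 9 had a lower change in pericytes and 1, Mgp, a higher one. Col3a1 stood at 862 and 658 CPM and then at 556 and 694 in pericytes, where the stages overlapped, and at 1174 and 971 and then 2263 and 2217 in fibroblasts. The changes differed by -1.44 ± 0.21 (edgeR adjusted p = 0.000106), and those of Col1a1 by -1.50 ± 0.25 (edgeR adjusted p = 0.00121). At E14.5 1 member of replicate 1 held 49 of 103 Col1a1 UMIs, and without it the level was 211 CPM. The call of Col5a1 was lost in 6 of 11 alternatives, and those of Col6a3 and Postn in 7 each. Mgp, an inhibitor of calcification, stood at 235 and 175 and then 855 and 581 CPM in pericytes, and its changes differed by 1.34 ± 0.29 (edgeR adjusted p = 0.0206), which was lost by DESeq2 and without E14.5 replicate 2. The values for Eln, Fbln2, Sfrp2 and Mfap5 rest largely on the single E14.5 members named above, that of Htra3 on 1 member with 5 of 6 UMIs in replicate 1, and that of Ttn on 1 E14.5 replicate 2 member that held all 44 UMIs.

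The change was higher in pericytes for 1 of 18 tested contractile genes (Mylk), for 2 of 19 genes of cGMP and G-protein-coupled signalling (P2ry14 and Gucy1a3) and for 1 of 3 PDGF genes (Pdgfrb), beside 0.238% of all genes. Pdgfrb in fibroblasts stood at 62.3 and 40.7 CPM and then at 20.6 and 25.3, and its changes differed by 1.37 ± 0.30 (edgeR adjusted p = 0.0206), a call lost without E14.5 replicate 1 or either E16.5 library. Gucy1a3 stood at 370 and 323 and then 501 and 478 CPM in pericytes and at 271 and 255 and then 179 and 135 in fibroblasts, a difference of 1.15 ± 0.23 (edgeR adjusted p = 0.00907), which was lost without E16.5 replicate 2. Fabp4 was at 11.2 to 19.3 CPM in all 4 fibroblast sums, and its changes differed by 3.03 ± 0.56 (edgeR adjusted p = 0.00358). Mylk, the myosin light chain kinase, stood at 18.3 and 47.7 and then 116 and 126 CPM in pericytes, and its changes differed by 2.80 ± 0.64 (edgeR adjusted p = 0.0295), which was lost without replicate 1 of either stage. Bex2 differed by 3.28 ± 0.63 (edgeR adjusted p = 0.00521), with pericytes at 18.3 and 15.9 and then 11.6 and 19.9 CPM and fibroblasts at 60.6 and 94.0 and then 7.21 and 4.95 CPM.

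**Figure D3:**
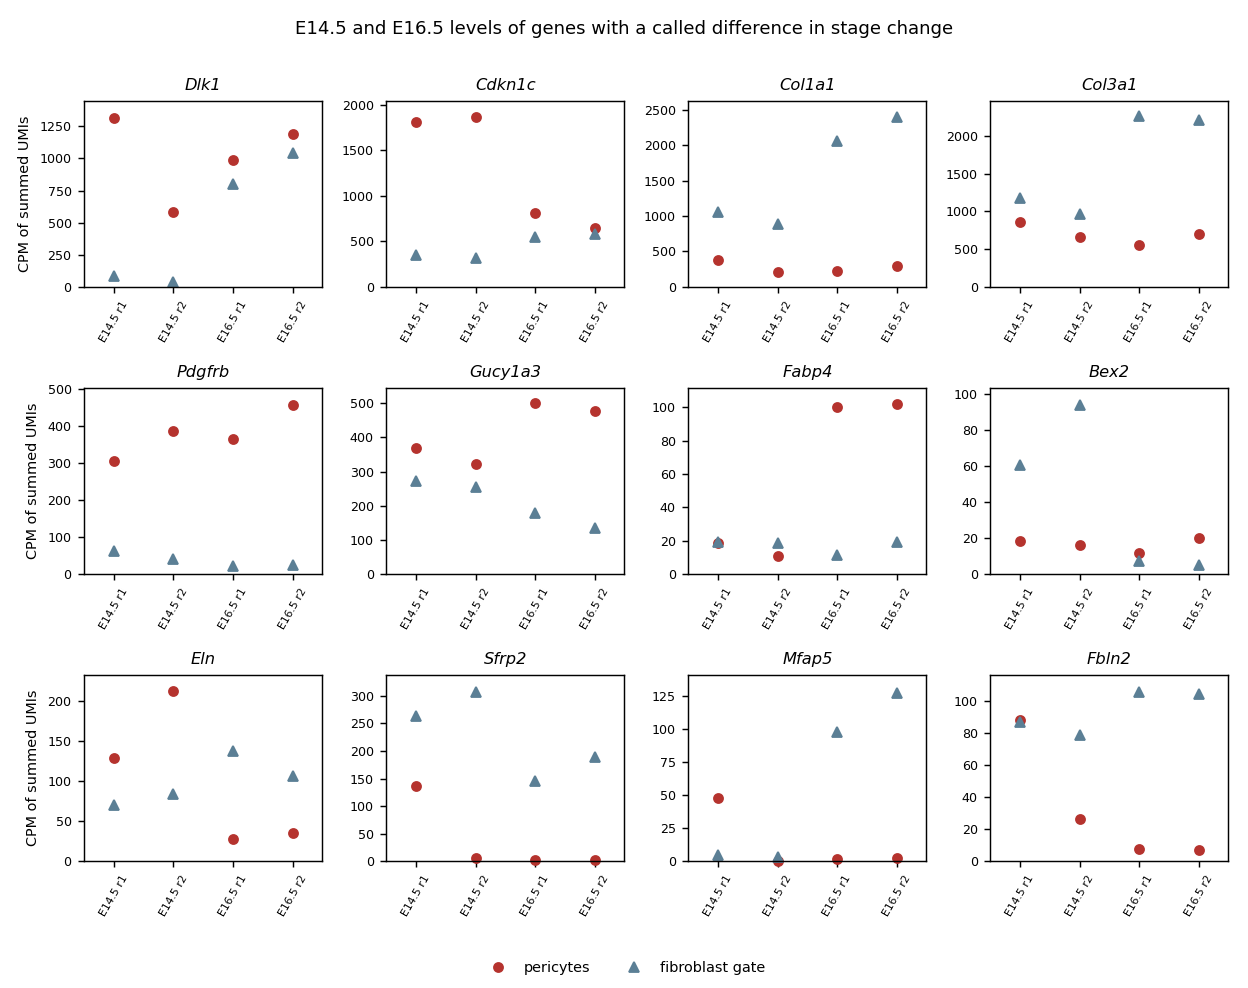
Levels in CPM of summed UMIs at E14.5 and E16.5 (r1 and r2 are replicates 1 and 2) of 12 genes whose stage change differed between pericytes (red circles) and the fibroblast gate (blue triangles). Dlk1, Col1a1 and Col3a1 climb in the fibroblast gate, Cdkn1c drops in pericytes, and the pericyte points of Eln, Sfrp2, Mfap5 and Fbln2 at E14.5 come mostly from single cells.

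Of 5 globin genes 4 were higher and 1, the embryonic Hbb-y, lower at E16.5 in the test of pericytes between stages. The summed globin level was 1203 and 1018 CPM at E14.5 and 1411 and 14073 CPM at E16.5, where 1 member of replicate 2 held most of it, and the 4 higher calls were lost without that library.

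At P3 the members were set beside the 2 E16.5 libraries. With 1 P3 sample there was no test, and a gene was counted as past the fold where P3 was at least 2-fold above or below each E16.5 library, with 0 against 0 passing, and the higher side reached 50 CPM. Of 2919 genes, 8.15% were past the fold, 7.54% higher and 0.617% lower at P3, beside a median log2 ratio over all of them of 0.29. Suffix 1 and suffix 2 of the P3 barcodes lay 2-fold or more apart in 7.07% of genes, close to that count, so both are given. By eye, the paper found significant differences between batches of cells at P3 alone. Stage and batch cannot be told apart in this comparison.

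In the pericyte list, 6 of 22 genes were past the fold, all higher. Vtn stood at 17.7 and 18.7 CPM at E16.5 and at 157 CPM at P3, with 169 and 145 in the suffixes. The exact 95% Poisson interval at P3 was 145 to 171 and covers counting error only. At P3 Vtn was at 0 in 188 of 380 members and reached 2668 CPM in the highest. Rgs4, a relative of Rgs5, stood at 27.3 and 22.2 CPM and then at 174, with 132 and 223 in the suffixes, and Steap4 at 30.0 and 30.4 CPM and then 160, with 152 and 169. Colec11 stood at 374 and 385 CPM and then at 998, with 1344 and 598. Art3, an ADP-ribosyltransferase relative, stood at 34.1 and 37.4 CPM and then at 283, with 304 and 258. For these 5 genes each suffix lay above both E16.5 libraries. In the same comparison 3 of 11 cardiomyocyte genes were higher (Myh6, Tnni3 and Nppa) and 1 lower (Myh7), and 5 of 16 immediate early and heat shock genes were higher (Jun, Dusp1, Hspa1a, Hspa1b and Hspb1). The cardiomyocyte list summed to 1664 and 1601 CPM at E16.5 and 2467 CPM at P3 and the other to 4422, 5004 and 6451 CPM, and their part in the other values was not tested.

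The 8 largest ratios upward were those of Nr1d1, Hopx, Gm10073, Ifi27l2a, Ctgf, Txnip, Eln and Gm10076. Gm10073 and Gm10076 stood at 14.3 and 51.0 CPM in the mean of the E16.5 libraries and at 229 and 602 CPM at P3. In the P3 smooth muscle gate, described below, they stood at 173 and 517 CPM. Whether the upward ratios are particular to pericytes was not tested. Hopx, a homeodomain cofactor, stood at 5.45 and 5.85 CPM at E16.5 and at 93.6 CPM at P3, with 102 and 83.8 in the suffixes. Ctgf, a matricellular target of YAP and TGF-beta, stood at 10.2 and 9.35 CPM and then at 128, with 155 and 97.1. Nr1d1, a repressor of the circadian clock, stood at 0 and 1.17 CPM and then at 57.1, with 91.6 and 17.3. Txnip, induced by glucose, stood at 25.2 and 25.7 CPM and then at 295, with 477 and 86.1. Eln stood at 27.3 and 35.1 CPM and then at 362, with 83.1 and 685, or at 270 CPM without the highest P3 member. Nr1d1, Txnip and Eln thus differed over 5-fold between the suffixes, while Hopx and Ctgf did not.

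The fibroblast gate differed between the suffixes in 6.31% of its genes. Nr1d1 stood at 49.8 and 10.7 CPM there and Txnip at 331 and 74.6, the same order as in pericytes. Eln stood at 1070 and 1622 CPM. Mgp, past the fold in pericytes at 1892 CPM, stood at 2646 and 1020 CPM in the pericyte suffixes and at 2862 and 904 in the fibroblast suffixes.

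Of the 18 genes past the fold downward, the 8 with the largest ratios were BC100530, Mex3a, Mest, Taf10, Nkain4, Gm13889, Cdkn1c and Gm26532. Mest stood at 627 and 740 CPM and then at 196, with 184 and 210 in the suffixes. Cdkn1c stood at 805 and 645 CPM and then at 249, with 371 and 109. Gm13889 stood at 1119 and 1114 CPM and then at 396, with 414 and 375. In fibroblasts Mest stood at 529 CPM at P3, near its 449 and 522 CPM at E16.5. BC100530 was at 0 at P3 and in E16.5 replicate 2, and is counted only through replicate 1, where all 499 UMIs came from 1 member. The same member held all 79 Lyz2 UMIs and 30 of 33 Tyrobp UMIs of that library, both genes of the macrophage list. The place of BC100530 describes that barcode.

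**Figure D4:**
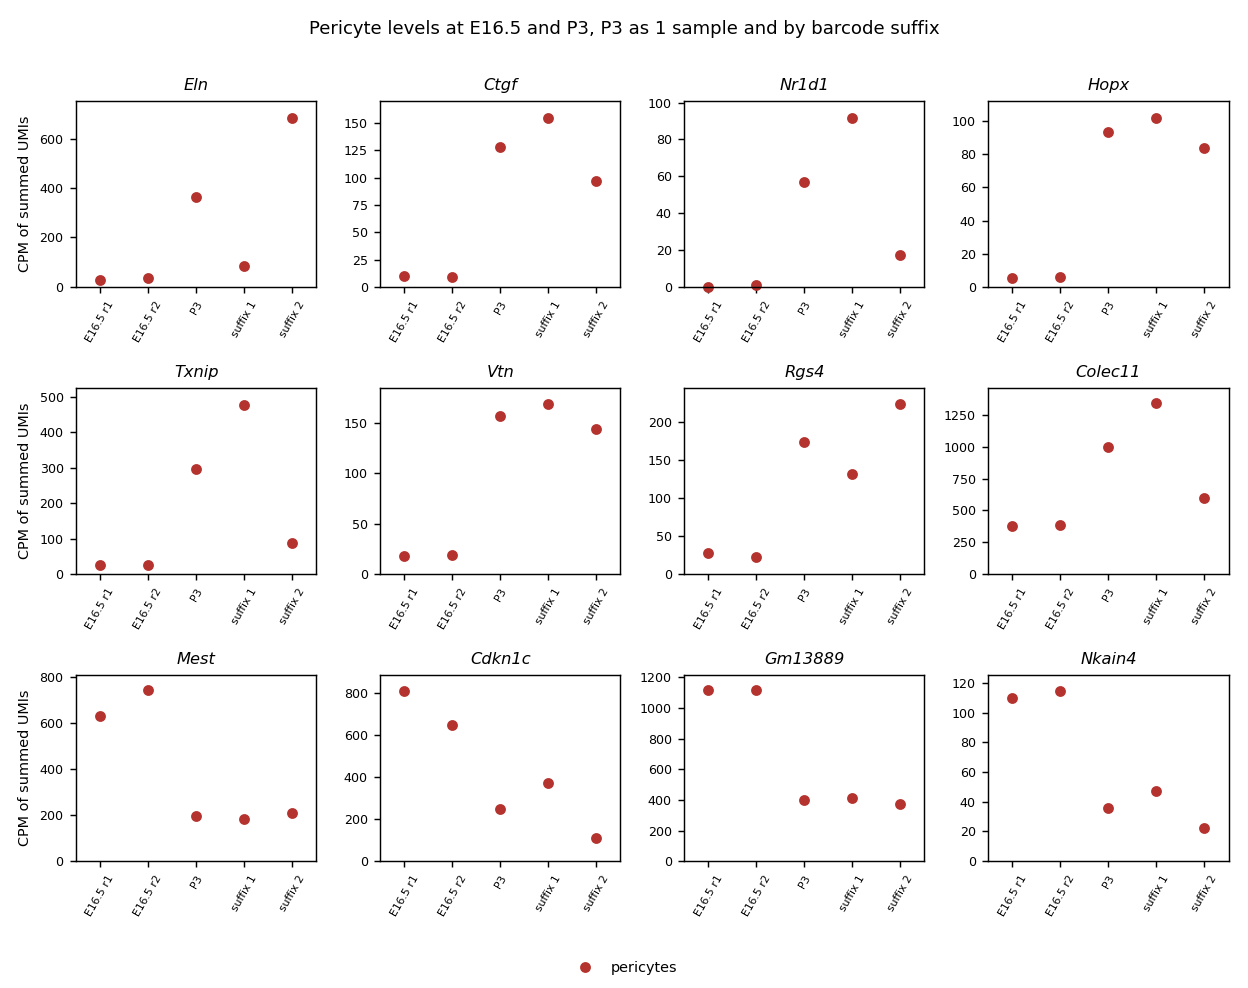
Pericyte levels in CPM of summed UMIs in the 2 E16.5 libraries (r1, r2), in P3 as 1 sample and in P3 barcodes of suffix 1 and 2, for 12 genes past 2-fold at P3. Hopx, Vtn, Mest and Gm13889 are alike in both suffixes, and Eln, Nr1d1, Txnip and Cdkn1c are not.

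Of 13 basement membrane genes, 4 were past the fold at P3 (Col15a1, Lama2, Lamb1 and Sparc), all higher, and 9 were not. Sparc, a collagen-binding glycoprotein, stood at 2567 and 2652 CPM at E16.5 and at 5551 CPM at P3, with 6069 and 4953 in the suffixes. Of 19 interstitial matrix genes 4 were higher and 0 lower, with fibroblast genes of the marker list summing to 1127 and 1468 CPM at E16.5 and 2846 CPM at P3, and their part in this was not tested. Of 5 Notch genes 0 were past the fold in either direction.

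The smooth muscle gate (Myh11 at 3 or more UMIs, Tnnt2 and endothelial limits as before) held 92 barcodes at P3 and at most 6 in any embryonic library, under the minimum of 10 set for a sum, so no test was run. Both gates read Myh11, a contractile gene, in opposite directions, so the levels of genes that go with it are a description of how the barcodes were split. The smooth muscle gate set no limit on Rgs5, Kcnj8, Higd1b or Abcc9. Of its 92 P3 barcodes, 32 met every pericyte condition but that on Myh11. At P3, 18 of 20 contractile genes of at least 50 CPM were 2-fold or more lower in pericytes and 0 higher. Over all 3189 genes, 8.81% were lower and 7.56% higher by that fold. Acta2, smooth muscle actin, stood at 1042 CPM in pericytes and 12279 in the smooth muscle gate, Tagln at 453 and 6939, Myl9 at 561 and 5257, and Cnn1, calponin, at 4.29 and 306. Of 23 pericyte genes of at least 50 CPM, 7 were 2-fold higher in pericytes and 1, Nrip2, lower. Pdgfrb stood at 474 and 178 CPM, Vtn at 157 and 9.48 and Colec11 at 998 and 222. Others were under 2-fold apart, with Notch3 at 256 and 370 CPM, Cspg4 at 84.0 and 107, Mcam at 302 and 412, Cox4i2 at 936 and 690 and Ndufa4l2 at 1737 and 1461. So were Rgs4, at 174 and 161 CPM, and Rgs5, which the pericyte gate reads, at 3797 and 2923. The Notch genes Hey2, Nrarp and Jag1 were 2-fold lower in pericytes, at 20.1, 109 and 36.2 CPM against 90.5, 254 and 122. Myh11 is left out of these counts.

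The members nonetheless held more contractile transcripts than fibroblasts. Of 16 tested genes, 10 were higher in pericytes and 2, Ramp1 and Itga8, lower. Calls were lost for Des by DESeq2 and without P3, for Actg2 and Ramp1 against mixed cells, and for Itga8 without either E16.5 library. Acta2 stood at 1163 and 1103 CPM at E14.5, 920 and 726 CPM at E16.5 and 1042 CPM at P3, against 143 to 305 in fibroblasts, and was higher by 2.05 ± 0.12 on the log2 scale (edgeR adjusted p = 6.4e-09). At E14.5, 1 member held 146 of 317 Acta2 UMIs in replicate 1 and 1 held 84 of 208 in replicate 2. Between E14.5 and E16.5 its level differed by -0.45 ± 0.20 (edgeR adjusted p = 0.279), while Mylk and Mustn1 were higher at E16.5 by 1.99 ± 0.36 and 1.93 ± 0.45 (edgeR adjusted p = 0.00501 and 0.0288). Both calls were lost by DESeq2, that of Mylk also without E14.5 replicate 1, and that of Mustn1 also without E14.5 replicate 2, with Myh11 at 0 UMIs and with Rgs5 at 5 or more UMIs.

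These transcripts were unevenly spread over members. At P3 the lowest member had 0 Acta2 UMIs, the median was 328 CPM and the highest 14151 CPM, with 9 of 380 members at 5000 CPM or more. Thinned to 2000 UMIs, Acta2 was seen in 49.7% of P3 members (95% exact interval 44.6 to 54.9) and in 6.57% of endothelial barcodes. The interval covers the counting of cells within 1 sample only. The median depth of the endothelial barcodes was 23726.5 UMIs against 8810.5 in members. The variance of its thinned UMIs was 5.76 times the mean at P3 and 6.25 and 3.58 times at E16.5, against 1.20, 1.33 and 1.10 times for Pdgfrb. Pdgfrb was seen in 58.7% of thinned P3 members and 3.11% of endothelial barcodes, and in 48.6% and 58.8% of E16.5 members. Vtn was seen in 23.9% of thinned P3 members and in 5.41% and 1.18% at E16.5, against 0.692% of P3 endothelial and 0% of P3 fibroblast barcodes.

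At P3 Acta2 and Tagln were higher with more Myh11 UMIs, on both sides of the Myh11 threshold. The levels are of summed UMIs in groups of barcodes, and whether single barcodes form a graded range was not tested. Barcodes that met every other condition had Acta2 at 1009 CPM with 0 Myh11 UMIs, 1640 with 1, 5093 with 2 and 8141 with more. Tagln went from 433 to 810, 2621 and 4154 CPM. Vtn stood at 156, 177, 109 and 24.7 CPM in the same order. Eln stood at 282, 1786, 2817 and 175 CPM, while 1 member held 348 of the 1350 Eln UMIs of all P3 members. The groups held 358, 22, 22 and 32 barcodes, of which the first and second are members.

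**Figure D5:**
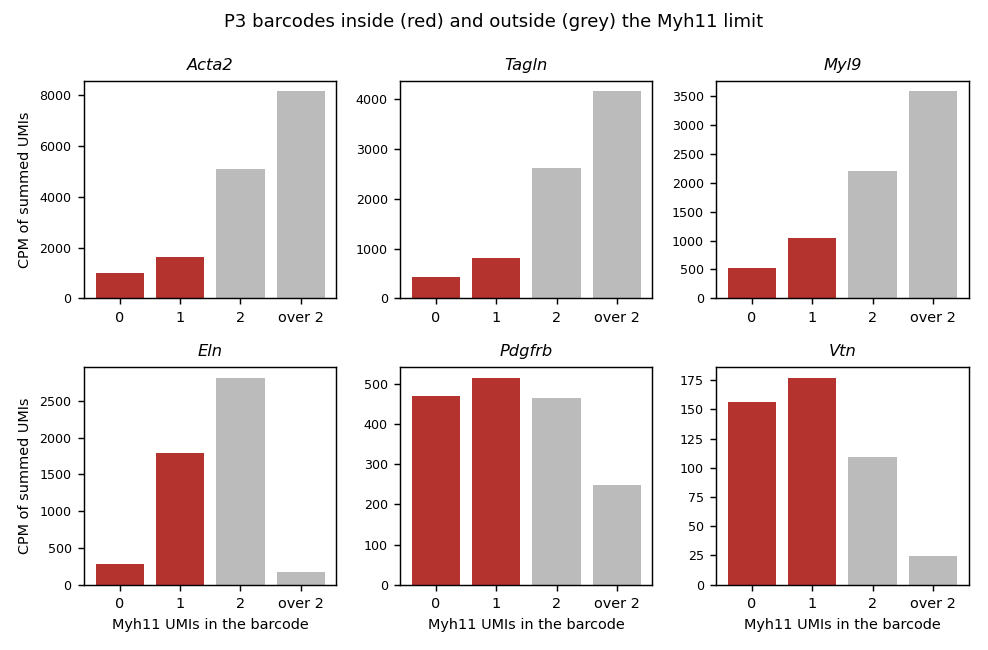
Mean level in CPM of summed UMIs of 6 genes at P3 in barcodes that met every other gate condition, by the number of Myh11 UMIs (0, 1, 2, over 2; 358, 22, 22 and 32 barcodes). Red bars are members and grey bars were left out; Acta2, Tagln and Myl9 climb with Myh11, and Vtn is lowest with over 2.

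Top2a, a topoisomerase of S to M phase, stood at 194 and 313 CPM at E14.5, 203 and 268 CPM at E16.5 and 168 CPM at P3, and the stage difference of -0.08 ± 0.23 did not pass the test (edgeR adjusted p = 0.933). It was at 0 in 6 of 15 and 4 of 10 members at E14.5, in 74 of 111 and 56 of 85 at E16.5 and in 283 of 380 at P3, where members were shallower. Thinned to 2000 UMIs, Top2a was seen in 18.0% and 22.4% of E16.5 and 15.8% of P3 members, in 22.4%, 28.2% and 19.2% of fibroblasts, and in 11.4%, 11.9% and 2.19% of the cardiomyocyte gate (Tnnt2 at 5000 CPM or more). Ccnd2, which drives the G1 phase, was higher in pericytes than in fibroblasts by 0.94 ± 0.14 (edgeR adjusted p = 0.000114). Of 31 tested cell cycle genes, 3 were higher in pericytes (Ccnd2, Pcna and Hells) and 5 lower (Cdc20, Birc5, Ube2c, Ccnb1 and Cenpf), beside 8.85% of all genes higher and 832 of 7917 lower. The call of Cenpf was lost in 9 of 13 alternatives, those of Ccnb1 and Pcna in 4 each, and that of Hells without E16.5 replicate 1.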

How the data were processed

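Droplet-based single-cell RNA libraries of mouse hearts were analysed from the deposited matrices of raw UMI counts, in which each value is the number of molecules of a gene in a barcode. The authors made these counts with Cell Ranger on mm10 (2.1.1 in the submitters' notes, which also name Seurat 3.1.1), and the embryonic matrices list 737280 barcodes each and the P3 matrix 10964. No second normalization was applied before deposit. One E8.5 record was not analysed here, and 2 sample records carry the number E16.5 replicate 1 with 1 matrix, which counts as 1 library. The labels name trypsin and the methods collagenase for dissociation, and they differ on the chemistry version. Matrix headers name later Cell Ranger releases.

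Barcodes with at least 2000 UMIs and 500 genes were gated as the report describes, and UMIs were summed per library and gate. Sums of at least 10 cells were tested in R 4.3.3 with edgeR 4.0.16 (quasi-likelihood, TMM, filterByExpr, Benjamini-Hochberg, threshold 0.05), with DESeq2 1.42.0 as an alternative. CPM is UMIs per 1000000 UMIs of a sum. P3 was compared without a test. Thinning, intervals and gates were computed in Python 3.11.15 with numpy 2.4.6, scipy 1.17.1 and pandas 2.3.3. No doublet caller was run, and a gate against mixed cells (no Pecam1 or Cdh5 UMI, Tnnt2 under 200 CPM, globin under 0.5%) stands as an alternative. Between 23 and 100 kept barcode sequences were shared by pairs of libraries. Deviations from the stage mean correlated at 0.0284 over genes between E14.5 and E16.5 libraries of the same replicate number. With 2 libraries a stage the 2 pairs mirror each other, and the E14.5 sums hold 15 and 10 cells. The value therefore cannot show whether replicate numbers pair libraries.

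The members and gene lists were chosen with earlier results of these data known. Named genes are the 8 with the largest change in each direction among those called, with at least 50 CPM in the higher group, not read by a gate and not mitochondrial, globin, ribosomal or sex-linked, plus members of the lists. Steps were tested on simulated counts.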

Additional observations from a re-analysis of the deposited data

Results flagged for a closer look

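The change from E14.5 to E16.5 differed between pericytes and the fibroblast gate, by the edgeR interaction test at an adjusted p under 0.05, in the following genes, with log2 differences of change (pericytes minus fibroblasts). It was lower in pericytes for the imprinted genes Dlk1 (-3.82), Mest (-2.69), Cdkn1c (-2.19) and Igf2 (-1.10) and for the growth factor binding protein Igfbp5 (-1.99). Among matrix genes it was lower for Col1a1 (-1.50), Col3a1 (-1.44), Col5a1 (-1.04), Col6a2 (-1.39), Col6a3 (-1.55), Postn (-0.93), Eln (-3.19), Fbln2 (-3.48) and Mfap5 (-8.89), and higher for Mgp (1.34). It was also lower for Sfrp2 (-4.77), Htra3 (-4.20), Ttn (-3.31), RP23-455C13.7 (-3.07), Mdm2 (-2.27) and Slit2 (-1.49).

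It was higher in pericytes for the receptor and signalling genes Pdgfrb (1.37), P2ry14 (5.74), Gucy1a3 (1.15), Hes1 (0.93), Plce1 (2.29), Pid1 (1.79) and Arhgdib (1.66), for Mylk (2.80) and Pdlim3 (2.07) of the contractile apparatus, and for Bex2 (3.28), Fabp4 (3.03) and Tshz2 (1.62). In the E14.5 sums of 15 and 10 members, 1 member held all 37 Sfrp2 and all 13 Mfap5 UMIs of replicate 1, 21 of 24 Fbln2 and 5 of 6 Htra3 UMIs, and 1 member of replicate 2 held all 44 Ttn UMIs. Eln in both E14.5 libraries came mostly from 1 member each. Igfbp5 stood at 414 and 74.2 CPM at E14.5, with 57 of the 113 replicate 1 UMIs in 1 member, and at 81.1 and 141 CPM at E16.5, and its call was lost by DESeq2, without E14.5 replicate 1 and against mixed cells. Calls were also lost for Plce1 in 4 of 11 alternatives, Arhgdib in 3, Tshz2 without replicate 1 of either stage and Pdlim3 without E14.5 replicate 2. P2ry14 had 1 UMI in the E14.5 replicate 1 members and 0 in those of replicate 2, and its call was lost without replicate 1 of either stage. The call of Slit2 was lost in 8 of 11 alternatives, among them DESeq2 and each removal of 1 library, and that of Mdm2 in 5 of 11. The call of Hes1 was lost in 5 of 11 alternatives, among them each removal of an E16.5 library, and that of Htra3 in 4. Neither was called with library as a block.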

How the results depend on the processing

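Between stages 115 genes were called in pericytes, against 251 with no filter, 45 by DESeq2, 207 with the replicate number as a block and 62 to 186 without single libraries. Against fibroblasts 1533 were called, against 2393 with no filter and 983 to 1855 without single libraries, the lowest without E16.5 replicate 1. The difference in change gave 55, against 100 with no filter and 34 to 73 without single libraries, and 60 with library as a block. At P3 238 genes were past the fold, 75 at a fold of 3, 504 from 20 CPM, 413 with suffix 1 alone, 248 with suffix 2 alone and 301 with the gate against mixed cells. The share at E12.5 was 0 and 0.0194% with barcodes thinned to 2000 and 5000 UMIs, 0.0107% and 0.0918% for E14.5, then 0.615% and 1.60% for E16.5. It was 1.61% with Rgs5 at 5 UMIs, 1.28% against mixed cells and 2.20% with the mitochondrial ceiling at E16.5, and 1.34%, 6.70% and, thinned to 2000 UMIs, 2.86% at P3 for mixed cells, ceiling and thinning. Under the gate against mixed cells the P3 share was no longer above that of E16.5 beyond counting error. Of the genes named or listed, 17 of 45 between stages, 128 of 159 against fibroblasts and 9 of 33 for the difference in change were called under every alternative run. Of the 33, 2 reversed. Htra3 was 3.05 without E14.5 replicate 1 (from -5.07 to 3.05 without single libraries). Ttn was 1.24 against mixed cells with at least 9 cells a sum. That alternative, the library block and the other 9-cell fits were chosen after seeing the data. The 9-cell stage fits called 139 genes with Rgs5 at 5 UMIs and 158 against mixed cells. The causes were not tested. E12.5 and smooth muscle sums, and the stricter gates, fell under the set minimum of 10 cells a sum and were not fitted at it.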
